A study of Sus scrofa with 36 samples.

Results

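The protein-coding genes of the cytosolic ribosome were examined as a group of 64 genes among the 6765 genes that the array annotation names singly. A gene was taken as a member if its symbol began with RPL, RPS or RPLP followed by a digit, or was RPSA. The 3 RPS6K genes, which encode kinases, were left out. Each member was represented by the probe set with the highest mean over all arrays. After a filter on dim probe sets (mean below log2 4.92), 61 members were tested. The other members, RPL26 (mean log2 4.17), RPL30 (4.66) and RPS15A (4.25), were too dim to be tested. The 61 tested members comprised 29 large subunit proteins, 23 small subunit proteins, the 3 stalk proteins RPLP0, RPLP1 and RPLP2, and 6 genes that are not core subunits. The last were the paralogs RPL22L1, RPL26L1, RPL36AL, RPL7L1 and RPS27L, and RPS19BP1, a nucleolar protein that binds a ribosomal protein and met the rule by its symbol alone. The core subunit FAU does not match the rule by its symbol and was not a member.

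Hippocampal RNA of 36 male piglets (Landrace×Large White cross) was hybridised to Affymetrix porcine arrays, with 1 array per piglet and 12 piglets per group. The animals entered the study when 3 days old and the tissue was taken on postnatal day 38. All were fed a milk replacer, which was given as it was (control), with 0.6 g/L lactoferrin (medium) or with 1.2 g/L lactoferrin (high). A code in the sample descriptions, here called the set code, takes 5 values (S1 to S5) that the labels leave unexplained. Samples of the control group were spread over S1 to S5 as 2, 2, 3, 3 and 2, those of the medium group as 0, 4, 3, 3 and 2, and those of the high group as 2, 4, 2, 3 and 1. The labels name no litters, and the p-values measure the spread between piglets of this study.

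A ribosome is built of a large and a small subunit, in which ribosomal RNA carries the catalytic and decoding centres and the proteins fold, hold and connect it. The subunit proteins are assembled in fixed proportions, and in mammals most of their mRNAs begin with a terminal oligopyrimidine tract through which mTOR signalling sets their translation as a group. In brain, ribosomes serve both the cell bodies and the distant processes of neurons and glia.

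Values are deposited log2 levels, on which a difference of 1 is a doubling. Array medians lay between 6.6 and 6.7 and the mean correlation between arrays was 0.983. The 3 arrays with the lowest mean correlation with the others were high replicate 2 (0.961), control replicate 10 (0.973) and control replicate 4 (0.976). A polyadenylated spike-in control, Dap, was absent from 3 control, 3 medium and 4 high arrays. Of the listed markers, those of neurons (11 of 19 tested) averaged log2 10.48 to 11.72 per array those of oligodendrocytes (13 of 18) 9.75 to 11.14, and those of hippocampal neuron types (4 of 14) 6.42 to 8.10. In bulk tissue, fewer cells of a type and less RNA per cell cannot be told apart.

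Members had bright probe sets on these arrays and varied little. Of the core members, 52 had a mean over log2 11, a level that 2.44% of probe sets passed. The mean over the 61 members ranged from 11.89 in control replicate 8 to 12.30 in control replicate 4, a span of 0.41 or 1.33-fold, with an SD of 0.113 over the 36 samples. The median SD of a member was 0.135, against 0.162 over 6034 tested genes, and 47 of 61 members had an SD below that median. RPS2 (SD 0.081), a small subunit protein at the mRNA entry, RPL3 (0.083), a large subunit protein next to the peptidyl transferase centre, and RPS28 (0.091), a small subunit protein at the mRNA exit, had the smallest SDs. RPS16 (0.237), a small subunit protein of the decoding region, the stalk protein RPLP2 (0.206) and RPL37 (0.203), a zinc-binding large subunit protein, had the largest. Since values carry 1 decimal, an SD near 0.08 approaches the rounding step.

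The members varied together from piglet to piglet, which is given here as a description over the 36 arrays. The median correlation between members was 0.696 over 1830 pairs, against 0.006 for all pairs of tested genes, and 67 pairs were below 0. Among the 29 large subunit genes and among the 23 small subunit genes the median was the same, 0.717. Removing the feeding group and the set code from each gene left the median over all members at 0.695. A single component held 70.9% of the members' variance, and 60 of 61 loadings had the same sign. Within the feeding groups the median pair correlation was 0.753 in control, 0.600 in medium and 0.724 in high samples, and within the set codes with at least 8 samples it was 0.738 in S2, 0.777 in S3 and 0.650 in S4. It was 0.675 in the 26 arrays with the Dap control, 0.779 in the 10 without it, and 0.663 without the 3 arrays of lowest correlation.

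Other bright genes were set beside the members. The 293 other named genes with a mean over log2 11 had a median pair correlation of 0.125, and their mean had a correlation of 0.004 with the members' mean. That mean ranged from 11.70 to 11.91 over the arrays. A mean over many weakly correlated genes varies little, so this range cannot be set directly against that of the members. After quantile normalisation of all tested probe sets, which gives every array the same distribution of values, the members' median pair correlation was 0.608 and their mean still ranged from 11.91 to 12.26. On that scale the other bright genes had a median pair correlation of 0.012, and their mean had r = -0.558 with that of the members. Both sets of genes share the top of a distribution that is fixed for every array. A rise of the members there tends to lower the other bright genes by construction. The values of the other bright genes on that scale therefore cannot show whether the members vary apart from them.

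The genes that followed the mean of the other members most closely were RPL21 (r = 0.958), RPL14 (0.954), both large subunit proteins, RPLP2 (0.946) and RPL35 (0.945), a protein at the exit of the nascent chain. At the other end stood RPL37, with r = -0.417, followed by the paralog RPL7L1 (0.122), RPL15 (0.444) and RPS2 (0.501). Without RPL37 and RPL7L1 no pair of members had a correlation below 0. RPL37 was lowest in high replicate 2 (log2 9.6) and control replicate 4 (9.9), the same arrays in which the members' mean was highest, and highest in control replicate 8 (10.6), in which that mean was lowest. RPL37 levels had r = 0.54 with the mean of the neuron markers and r = -0.708 with that of the oligodendrocyte markers. High replicate 2 and control replicate 4 also had the lowest neuron means (10.48 and 10.95) and the highest oligodendrocyte means (11.14 and 10.91). These correlations are not given without them. The array holds only 1 probe set for RPL37.

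**Figure D1:**
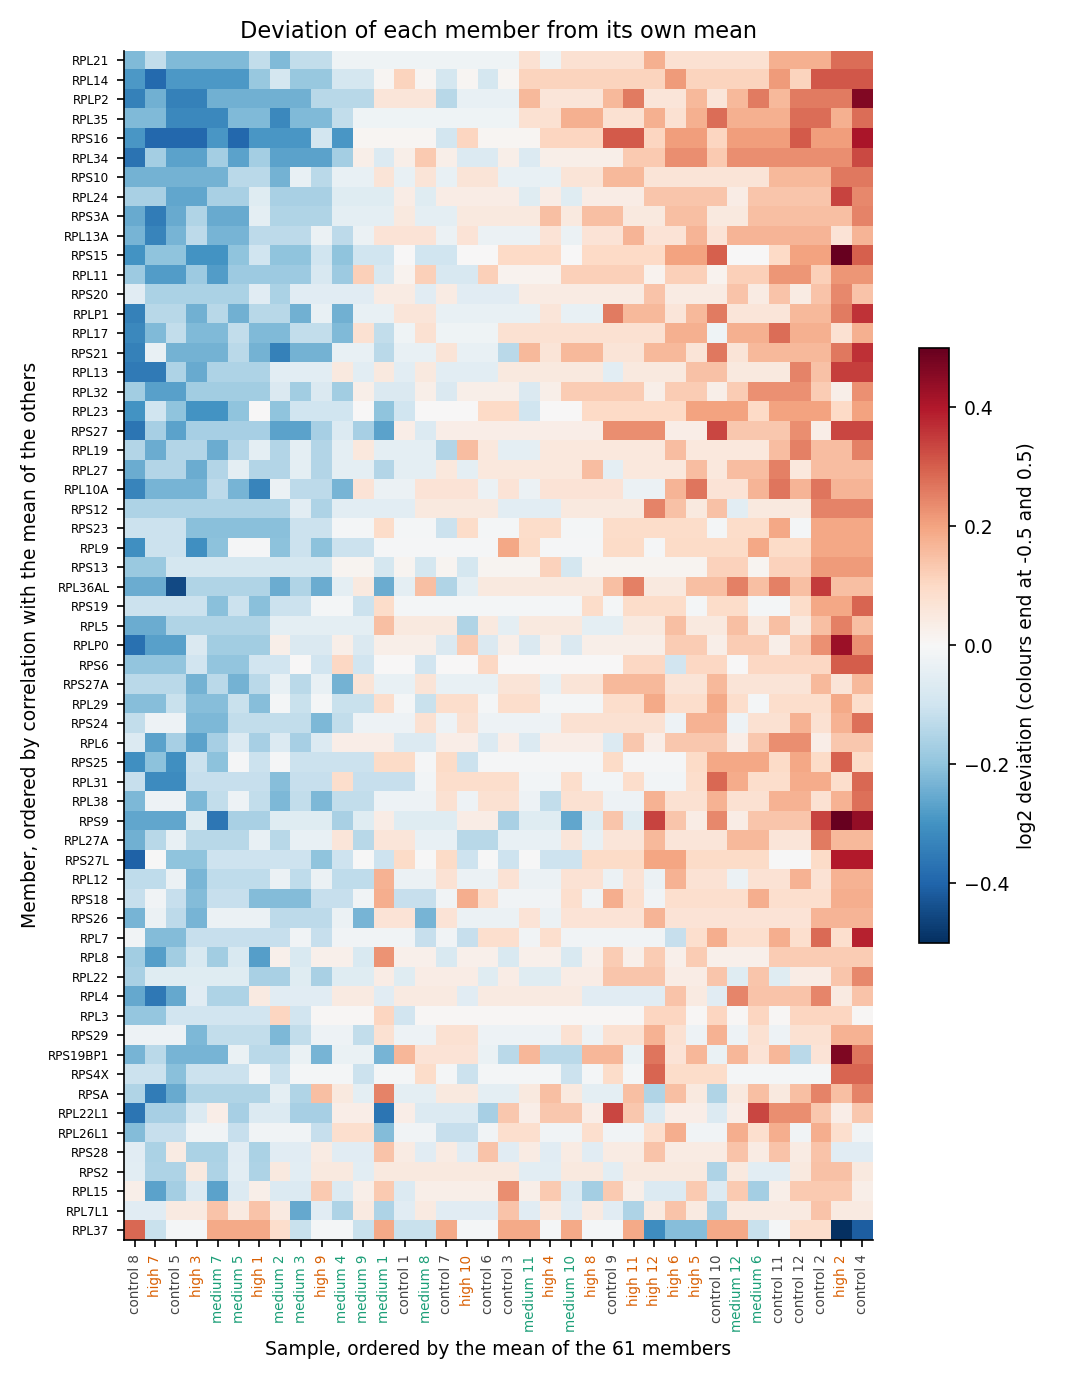
Deviation of each tested member from its own mean over the 36 samples (log2, colour scale from -0.5 to 0.5), with samples ordered by the mean of the 61 members and coloured by feeding group, and members ordered by their correlation with the mean of the others. Nearly the whole column of members is low in control replicate 8 and high in control replicate 4, RPL37 in the bottom row runs the other way, and the 3 feeding groups are interspersed.

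The extreme values gathered in few samples. Control replicate 4 held the highest value, ties included, of 36 of 61 members, high replicate 2 of 28 and control replicate 2 of 20. Control replicate 8 held the lowest value of 30 members, high replicate 7 of 25 and high replicate 3 of 24. In high replicate 7 none of the 61 members was above its own mean, and in control replicate 2 it was 60 of 61. Control and high samples stood at both ends.

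Other transcripts of the translation apparatus shared the pattern to different degrees, again as a description over 36 arrays. The mean of the 5 tested genes of the elongation and termination list, EEF1A1, EEF1B2, EEF1D, EEF1E1 and EEF1G, had r = 0.878 with the members' mean. No termination factor was among them. For 18 other transcripts known to bear a terminal oligopyrimidine tract, a list that includes FAU, r was 0.835. It was 0.38 for 32 initiation factors, 0.417 for 58 mitochondrial ribosomal proteins, 0.082 for 38 ribosome biogenesis genes and -0.217 for 14 genes of mTOR signalling to translation. All the tested elongation genes but EEF1E1 are also in the list of oligopyrimidine tract transcripts, so these 2 correlations are not separate observations. The tract list also shares genes with the initiation factors, such as EIF3E, and NPM1 with the ribosome biogenesis genes. Of the 5973 tested genes outside the members, the most similar single genes were LOC100525692, a protein-coding locus without a descriptive name (r = 0.944), SNRPG (0.898), a core protein of the spliceosomal particles, ZC3H10 (0.871), a zinc finger protein, SSR4 (0.861), a subunit of the translocon-associated complex, and TRAPPC5 (0.857), a vesicle tethering subunit. The median over all those genes was 0.024.

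Cell type markers were also set beside the members' mean. The mean of the 7 tested microglia markers (of 14 listed) had r = 0.533 and Spearman rho = 0.589 with the members' mean, and r = 0.601 without the 2 arrays farthest from its median. It was 0.757 within S2, 0.518 within S3 and 0.643 within S4. The oligodendrocyte mean had r = 0.451 and the neuron mean r = -0.464, which became 0.226 and -0.271 without the 2 farthest arrays of each. Within S2, S3 and S4 the oligodendrocyte mean had r = 0.62, 0.03 and 0.52, and the neuron mean -0.458, -0.179 and -0.6. The astrocyte mean had r = 0.081 over all arrays and 0.174, -0.128 and -0.659 within these set codes. By gene, 60 of 61 members had a positive correlation with the microglia mean, 57 with the oligodendrocyte mean, and 58 had a negative correlation with the neuron mean. As the members vary together, these counts are not separate observations. They use all arrays, and no share over all tested genes is given beside them. The 3′ minus 5′ difference of the actin control probe sets, a sign of RNA integrity, had r = 0.035 over all arrays, but 0.859 within S4, against -0.119 in S2 and 0.176 in S3. The same difference for GAPDH had 0.165 over all arrays and 0.584 within S4. For the hybridisation control bioB r was 0.077. For 28S ribosomal RNA it was -0.064 over all arrays, -0.359 in those with the Dap control and 0.827 in the 10 without it. The part of cell makeup or RNA quality in the shared pattern was not tested.

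Feeding groups were compared by a linear model with the set code as a block (limma, two-sided, Benjamini-Hochberg adjustment over 18006 probe sets). Before any test, the members' mean ranged from 11.89 through a median of 12.14 to 12.30 in control samples, from 11.93 through 12.07 to 12.19 in medium samples, and from 11.91 through 12.12 to 12.28 in high samples. The medium samples were the most narrowly spread and lay inside the range of the controls. Means were 12.13 ± 0.126 (SD, n = 12) in control, 12.06 ± 0.089 (SD, n = 12) in medium and 12.09 ± 0.118 (SD, n = 12) in high samples. Both lactoferrin groups were compared with the same control samples, so their differences from control are not independent.

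**Figure D2:**
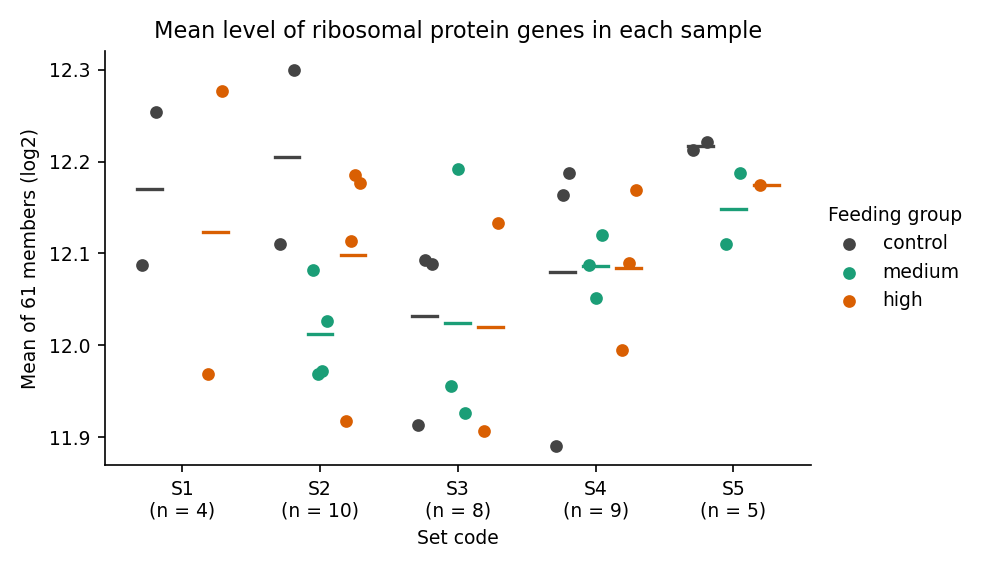
Mean log2 level of the 61 members in each sample (points), by set code on the horizontal axis and feeding group (colour), with a line at the mean of each group within a set code. Groups overlap in S3 and S4, the controls of S2 lie above its 4 medium samples, and the 5 samples of S5 lie between 12.11 and 12.22.

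In medium minus control, 0 of 61 members passed an adjusted p of 0.05 (limma), as did 0% of all probe sets, and the smallest adjusted p of a member was 0.669. At an unadjusted p under 0.05, 3 members were below control, beside 3.15% of all probe sets, and 0 above, beside 3.78%. By sign, 56 of 61 differences were below 0, against 49.7% of all probe sets, and their median was -0.070 against 0.0006. As the members vary together, these 61 signs are not separate observations. By role, 26 of 29 large subunit genes (median -0.073), 22 of 23 small subunit genes (-0.071) and all 3 stalk genes were below 0. For 5 of the 6 genes that are not core subunits the difference was below 0 as well, with a median of -0.026. The 95% interval of the difference lay within 0.3 either side of 0 for 60 of 61 members, RPS16 being the exception with a lower bound of -0.33.

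RPL7, a large subunit protein with an RNA-binding N-terminus, had the smallest p. It measured 12.2 to 12.8 with a median of 12.50 in control samples, 12.3 to 12.5 with a median of 12.40 in medium samples, and 12.2 to 12.5 with a median of 12.35 in high samples. The groups overlapped, and the highest control value came from control replicate 4. Medium minus control was -0.12 (SE 0.05, limma p = 0.0261, adjusted p = 0.669), with 10 of 12 medium samples below the control median and 0 above it. RPL38, a large subunit protein known for mRNA-selective effects in development, measured 12.0 to 12.5 in control (median 12.30) and 12.0 to 12.3 in medium samples (median 12.20). Its difference was -0.11 (SE 0.05, limma p = 0.0395, adjusted p = 0.693), and the ranges overlapped over most of their length. RPS15, a small subunit protein near the decoding centre, measured 11.6 to 12.2 in control (median 12.00) and 11.6 to 12.0 in medium samples (median 11.80). It differed by -0.15 (SE 0.07, limma p = 0.0421, adjusted p = 0.701), with 11 of 12 medium samples below the control median. Without the 3 arrays of lowest correlation these differences were -0.072, -0.074 and -0.11, with unadjusted p of 0.149, 0.150 and 0.0971.

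**Figure D3:**
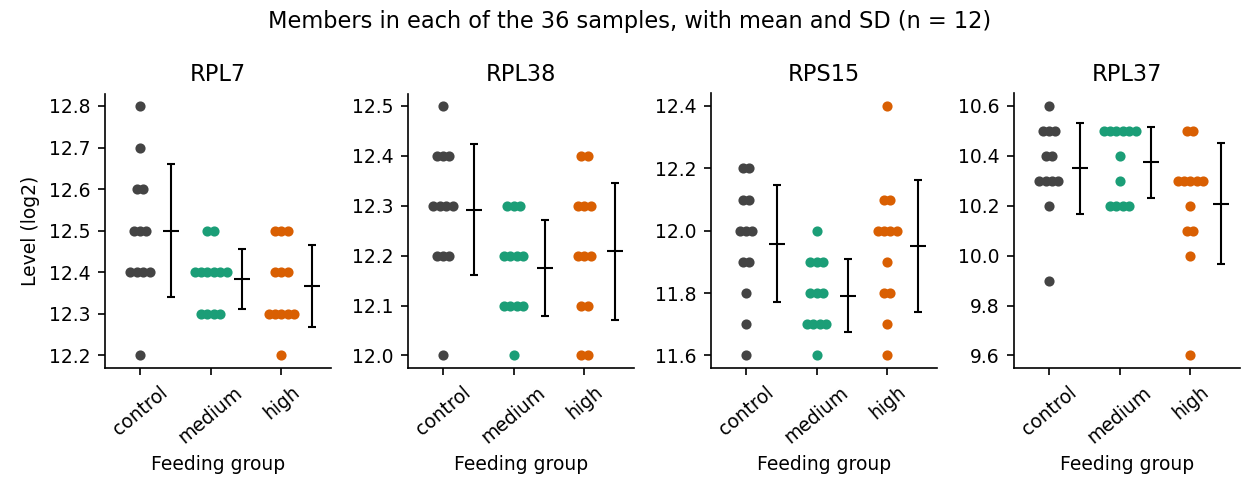
Log2 levels of RPL7, RPL38, RPS15 and RPL37 in the 36 samples (points, 1 per sample) by feeding group, with the mean and SD of 12 samples beside each group. The groups overlap for all 4 genes, and the lowest RPL37 value, 9.6, belongs to 1 sample of the high group.

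In high minus control, 0 of 61 members passed (smallest adjusted p = 0.976 by limma), beside 0% of all probe sets. At an unadjusted p under 0.05, 1 member lay below control, beside 2.17% of all probe sets, and 0 above, beside 2.77%. By sign, 54 of 61 differences were below 0, against 50.3% of all probe sets, with a median of -0.032. This was 29 of 29 large subunit genes, 21 of 23 small subunit genes and 2 of 3 stalk genes. Among the 6 genes that are not core subunits it was 2. The member was again RPL7, at -0.14 (SE 0.05, limma p = 0.00681, adjusted p = 0.976), with 9 of 12 high samples below the control median and 0 above it. Next were RPL37, at -0.13 (SE 0.08, limma p = 0.110), and RPS28, at -0.066 (SE 0.04, limma p = 0.111). RPL37 ranged from 9.9 to 10.6 in control samples (median 10.35), from 10.2 to 10.5 in medium (10.45) and from 9.6 to 10.5 in high samples (10.30), so that all groups overlapped. Measured against the mean of the members in each array, RPL7 was -0.11 in high minus control (unadjusted limma p = 0.0174) and -0.053 in medium minus control (p = 0.246). RPL7 was picked for its smallest p in the same samples, so these values are not separate support for it.

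In high minus medium, 0 of 61 members passed (smallest adjusted p = 0.811 by limma), beside 0% of all probe sets, and 0 had an unadjusted p under 0.05 in either direction, beside 3.49% below and 2.48% above. Here 12 of 61 differences were below 0, against 49.7%, and the median was 0.035. Without S2 the median was 0.009, with 26 of 61 below 0, in the arrays with the Dap control it was 0.01 with 18, and with the oligodendrocyte and neuron means as covariates 0.008 with 22. The smallest p-values belonged to RPS15, at 0.14 (SE 0.07, limma p = 0.0537), RPL37, at -0.15 (SE 0.08, limma p = 0.0818), and RPS27, a zinc-binding small subunit protein, at 0.12 (SE 0.07, limma p = 0.103). In the F test of any difference among the groups, 0 members passed, beside 0% of all probe sets, and RPL7 (p = 0.0159) was the only member with an unadjusted p under 0.05, beside 5.89%. The ranges of 0 of 61 members failed to overlap in any pair of groups, beside 0% of all probe sets in each pair.

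**Figure D4:**
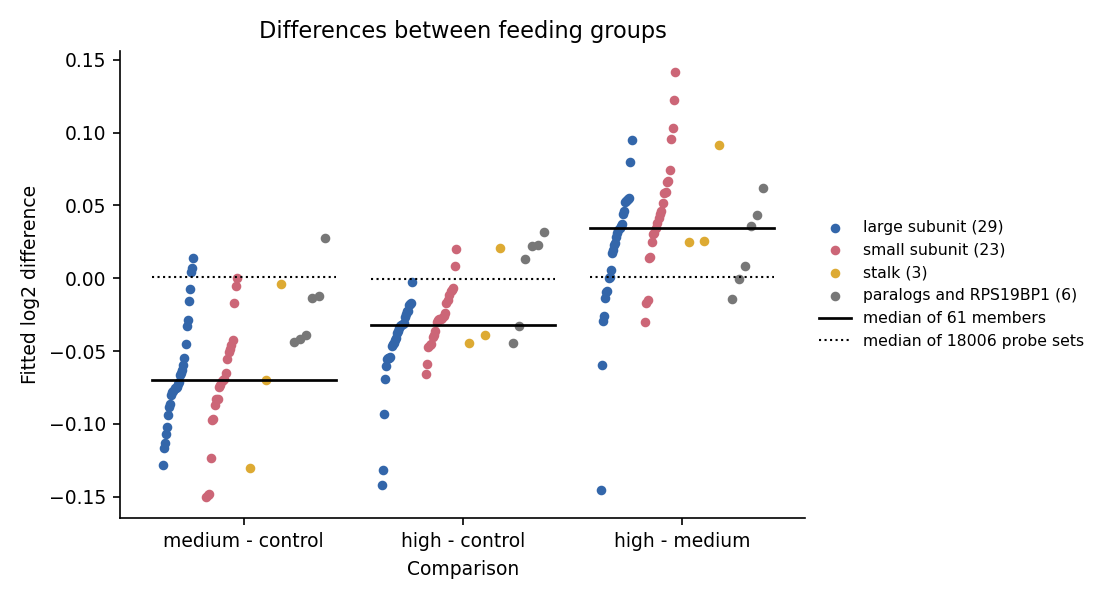
Fitted log2 differences of the 61 members (points) in the 3 comparisons of feeding groups, coloured by role, with the median of the members (solid line) and of all 18006 tested probe sets (dotted line). The members' medians are -0.070, -0.032 and 0.035, and no point is farther from 0 than 0.15.

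The stalk proteins, which recruit the elongation factors, had differences near 0 or below it in medium samples. RPLP0, the base of the stalk, measured 12.1 to 12.7 in control, 12.3 to 12.6 in medium and 12.2 to 12.9 in high samples, and medium minus control was -0.0039 (95% interval -0.13 to 0.12). RPLP1 measured 11.9 to 12.6, 12.0 to 12.3 and 12.0 to 12.5, with medium minus control at -0.13 (95% interval -0.26 to 0.0031, limma p = 0.0553). RPLP2 had means of 10.28 ± 0.241, 10.20 ± 0.186 and 10.23 ± 0.197 (SD, n = 12 each), with a difference of -0.070 (95% interval -0.24 to 0.099). Whether the stalk genes differ from each other in this was not tested. RPSA, which also serves as a laminin receptor, had a mean of 12.45 in each group, and its medium minus control difference was 0.0003 (95% interval -0.13 to 0.13). RPS2 and RPL3, with the smallest SDs, had differences of -0.0055 and 0.0072 in the same comparison, and RPS16, with the largest SD, had -0.15 (SE 0.09, limma p = 0.113).

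The paralogs and RPS19BP1 stayed within 0.05 of 0 in both comparisons with control. RPL22L1 had -0.044 in medium and -0.044 in high samples relative to control, RPL36AL -0.041 and -0.033, and RPS27L, a target of p53, -0.039 and 0.023. RPL7L1 had -0.014 and 0.022, RPL26L1 0.027 and 0.013, and RPS19BP1 -0.012 and 0.032. The smallest unadjusted limma p among these was 0.531.

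The differences were also taken within each set code. In S2, the mean difference of the members was -0.193 for medium minus control (4 against 2 samples, 57 of 61 members below 0) and -0.107 for high minus control. One of the 2 S2 controls was control replicate 4. In S3 these differences were -0.007 and -0.012, in S4 0.006 and 0.004, in S5 -0.069 and -0.042, and in S1, which held no medium sample, high minus control was -0.048. Without S2 the fitted medians were -0.025 and -0.013. Of the interaction between feeding group and set code, 0 members passed (limma, adjusted), beside 0.0167% of all probe sets, and 0 had an unadjusted p under 0.05, beside 6.92%. The smallest p of a member was that of RPL7L1 (p = 0.0681), followed by RPL17 (0.219) and RPL22L1 (0.251).

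Control replicate 4 and control replicate 8, the samples with the highest and the lowest mean, were among those that most moved the medians of both comparisons with control. Without control replicate 4 the median was -0.044 for medium and -0.007 for high minus control, and without control replicate 8 it was -0.092 and -0.059. The number of members below control at an unadjusted p under 0.05 in medium minus control went from 3 to 0 and to 13, respectively. This count was also 0 without control replicate 10 and 1 without high replicate 1 or medium replicate 2, 3 or 7. It was 5 without medium replicate 8, 6 without medium replicate 10 or control replicate 11, 7 without high replicate 3, 8 without control replicate 5, 10 without high replicate 2 and 12 without medium replicate 6. The high minus control median was -0.021 without control replicate 2, and -0.008, -0.051, -0.015 and -0.017 without high replicates 1, 2, 3 and 7, with a count of 2 in place of 1 without control replicate 4 or 5 or high replicate 1. The high minus medium median was 0.023 without medium replicate 2, 0.054 without medium replicate 6, 0.056 without high replicate 3 and 0.019 without high replicate 8. No share over all probe sets is given for these refits, so their counts have no background beside them.

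The values of cell type markers between the groups are given for comparison. The 7 tested microglia markers had a median of -0.19 in medium minus control and -0.21 in high minus control. At an unadjusted p under 0.05, 4 of 7 were below control in medium samples, beside 3.15% of all probe sets. In high samples it was 3 of 7 of these markers, beside 2.17%. Their mean ranged from 7.91 to 9.0 in control, 7.70 to 8.41 in medium and 7.89 to 8.24 in high samples. For the 13 oligodendrocyte markers the median was -0.16 and -0.033, with 2 and 0 of 13 below control at that level, beside the same shares. Their mean ranged from 9.77 to 10.91 in control, 9.78 to 10.21 in medium and 9.75 to 11.14 in high samples. The 4 hippocampal neuron markers had medians of 0.28 in medium minus control (0 of 4 below 0), 0.0037 in high minus control and -0.28 in high minus medium (4 of 4 below 0), with 0 at an unadjusted p under 0.05. Their mean ranged from 6.42 to 7.88 in control, 7.55 to 8.10 in medium and 6.7 to 7.88 in high samples. In medium and high minus control the medians were 0.031 and -0.0001 for 11 neuron markers and -0.056 and -0.040 for 8 astrocyte markers. They were 0.056 and 0.097 for 7 endothelial, 0.0082 and -0.012 for 3 choroid plexus and 0.056 and -0.021 for 4 erythroid markers. No marker list had a gene at an adjusted p under 0.05. With the oligodendrocyte and neuron means as covariates the members' medians were -0.046 and -0.032. The part of the microglia and hippocampal markers in the members' differences was not tested.

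The pathway lists chosen for translation also had no gene past an adjusted p of 0.05 in any comparison of groups (limma). In medium minus control the median was -0.0027 for 32 initiation factors, with 1 below control at an unadjusted p under 0.05, the cap-binding EIF4E2 (-0.11, limma p = 0.0112). It was -0.057 for the 5 tested genes of the elongation and termination list and -0.024 for the 18 other oligopyrimidine tract transcripts. Of these 18, 14 were below 0, against 49.7% of all probe sets, and 0 genes of either list were at that level. For 38 ribosome biogenesis genes it was 0.024, with 2 above control, NHP2 (0.13, limma p = 0.0231), a protein of the pseudouridylation complex, and FBL (0.12, limma p = 0.0311), the methyltransferase fibrillarin. For 14 mTOR pathway genes it was 0.015, with 1 above, the kinase PDPK1 (0.13, limma p = 0.0208), and for 58 mitochondrial ribosomal proteins it was 0.014, with 1 above, MRPL18 (0.14, limma p = 0.0217). Of all probe sets, 3.15% were below and 3.78% above control at that level in this comparison.

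By set code, the members' mean was 12.15 ± 0.146 (SD, n = 4) in S1, 12.09 ± 0.117 (SD, n = 10) in S2, 12.03 ± 0.113 (SD, n = 8) in S3, 12.08 ± 0.095 (SD, n = 9) in S4 and 12.18 ± 0.044 (SD, n = 5) in S5. In the F test over set codes (limma, feeding group in the model), 0 of 61 members passed, beside 2.62% of all probe sets, and 4 had an unadjusted p under 0.05, beside 17.4%, a share no larger than the background. These were RPL15 (p = 0.0109), RPL4 (p = 0.0241), RPS20 (p = 0.0349) and RPL14 (p = 0.0431).

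Each set code was then compared with the mean of the other 4. In S3, 0 members passed (smallest adjusted p = 0.0752 by limma), beside 0.244% of all probe sets. At an unadjusted p under 0.05, 24 members (39.3%) lay below, beside 7.95% of all probe sets, and 0 above, beside 7.61%. Of the differences, 58 of 61 were below 0, against 48.6%, with a median of -0.097. The 24 members at an unadjusted p under 0.05 comprised 12 of 29 large subunit genes, 9 of 23 small subunit genes, 2 of 3 stalk genes and RPL36AL. The count turned on few samples. It was 4 without high replicate 7, 9 without control replicate 5, 11 without medium replicate 7, 12 without medium replicate 5, and 37 without medium replicate 6. It was 3 after quantile normalisation, with a median of -0.058, 9 with array weights, and 1 in the arrays with the Dap control. That control was absent from 4 of 8 arrays of S3 and 6 of 28 others. No share over all probe sets is given for these refits. The mean of the microglia markers was 7.95 in S3 and 8.25 in S5, against 8.08 to 8.22 in the other set codes, and the 3′ minus 5′ difference of actin was 3.19 in S3, against 2.57 to 3.0 in the others. Their part in the shifts of S3 and S5 was not tested.

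RPL15, a large subunit protein that does not follow the other members closely, had the smallest p in S3. It measured 11.7 to 12.0 in S3 (median 11.80), 11.9 to 12.1 in S1 (12.05), 11.9 to 12.2 in S2 (11.95), 11.9 to 12.1 in S4 (12.00) and 11.9 to 12.1 in S5 (12.00). S3 reached lower than any other set code but overlapped all of them. The difference was -0.17 (SE 0.04, limma p = 0.000464, adjusted p = 0.0752). RPL14 measured 11.2 to 11.7 in S3 (median 11.40) and had -0.22 (SE 0.07, limma p = 0.00424), and RPL4 measured 11.7 to 12.2 (median 11.95) and had -0.14 (SE 0.05, limma p = 0.00673). In the arrays with the Dap control RPL15 still had -0.18 (SE 0.06, adjusted p = 0.606).

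In S5, 0 of 61 differences were below 0, against 47.4% of all probe sets, with a median of 0.099. There 0 members passed (limma), beside 0% of all probe sets, and 9 (14.8%) lay above at an unadjusted p under 0.05, beside 2.6%, and 0 below, beside 2.59%. RPL17 had 0.18 (SE 0.07, limma p = 0.0193), RPS28 0.11 (SE 0.05, limma p = 0.0247) and RPL21 0.15 (SE 0.07, limma p = 0.0259). RPL21 measured 12.5 to 12.6 in the 5 samples of S5, inside the range of 12.3 to 12.7 in S1. The count was 1 without high replicate 12, 2 without medium replicate 12, 4 without high replicate 1, 5 without control replicate 1 or without control replicate 11, and 19 without medium replicate 6, and it was 2 after quantile normalisation. It was 1 in the arrays with the Dap control, 21 without the 3 arrays of lowest correlation, and 32 with the oligodendrocyte and neuron means as covariates. Again no share over all probe sets is given for these refits.

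The other set codes had smaller shifts. The members' median was 0.045 in S1, -0.020 in S2 and -0.024 in S4. At an adjusted p of 0.05, 0 members passed in each, beside 1.26%, 0% and 1.38% of all probe sets (limma). At an unadjusted p under 0.05 there were 0 in S1, beside 9.87% of all probe sets below and 8.16% above, and 0 in S2, beside 1.69% below and 2.32% above. In S4 there was 1 below, beside 7.31%, and 0 above, beside 8.08%. It was RPS26 (-0.10, limma p = 0.0339). The S1 median turned to -0.021 without high replicate 2 and to -0.039 in the arrays with the Dap control. In S1 the smallest p-values were those of RPL27A (0.12, limma p = 0.0791), RPLP0 (0.14, limma p = 0.101) and RPL4 (0.11, limma p = 0.111). In S2 they were those of RPS19BP1 (-0.089, limma p = 0.175), RPS27 (-0.075, limma p = 0.268) and RPL15 (0.043, limma p = 0.312). In S4, RPL26L1 and RPL7L1 followed RPS26, each with -0.082.

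**Figure D5:**
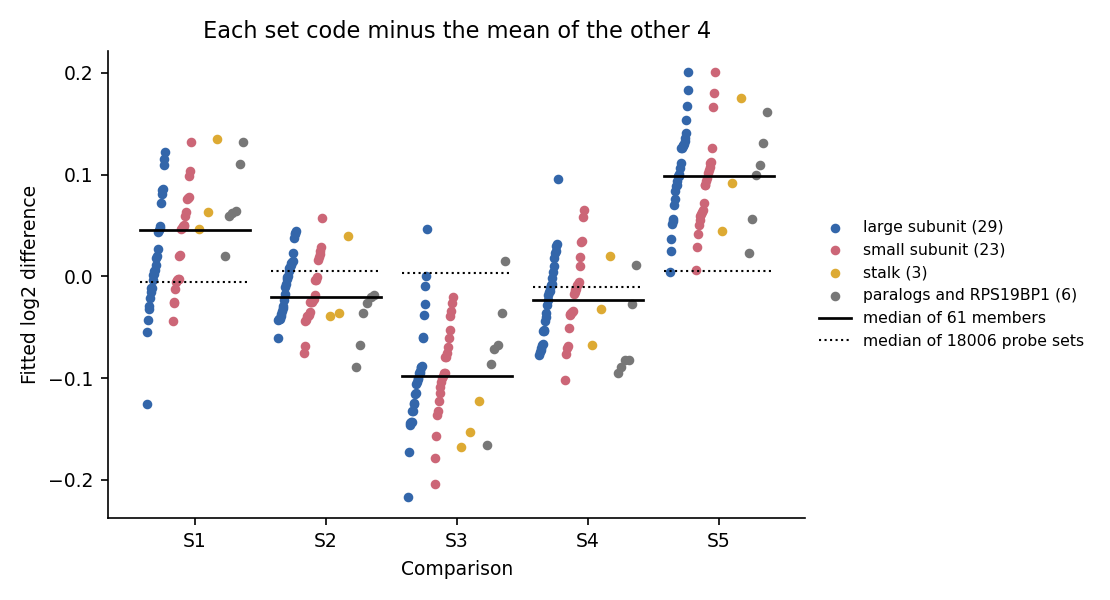
Fitted log2 differences of the 61 members (points, coloured by role) for each set code minus the mean of the other 4, with the median of the members (solid line) and of all 18006 tested probe sets (dotted line). In S3, 58 of 61 points lie below 0, and in S5 all 61 lie above it.

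Ribosomal protein genes have many processed copies in mammalian genomes, so probe sets can read related transcripts. Of the 61 probe sets used, 51 had the plain suffix, 6 the suffix for several transcripts of a gene, 3 that for transcripts of possibly different genes, and 1 that for probes that can cross-hybridise, by the manufacturer's naming. On the array 24 members had several probe sets, and 28 of those not used passed the filter. Their correlation with the one used had a median of 0.124, and 25 of the 28 were dimmer by more than 2 on the log2 scale. The 4 with r above 0.6 read RPL27 (0.898), RPL31 (0.920) and RPS18 (0.803 and 0.695). For these genes the other probe sets had medium minus control differences of -0.021 for RPL27, -0.10 for RPL31, and -0.11 and -0.12 for RPS18, beside -0.045, -0.094 and -0.069 for the probe sets used. Among those with lower r both signs occurred, with 0.12 for RPS27 (beside -0.15), 0.045 for RPLP1 (beside -0.13) and -0.14 for 1 of RPL23 (beside -0.13). The second brightest probe sets of 22 members had a median of -0.012 in S3 minus the other set codes. There 13 were below 0, against 48.6% of all probe sets. In S5 their median was 0.064, with 5 below 0 against 47.4%, and in high minus control -0.046, with 13 against 50.3%.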

How the data were processed

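RNA levels were measured in 36 hippocampus samples, and the authors deposited log2 values rounded to 1 decimal. The submitters' processing notes name RMA and version 1.1 of Affymetrix Expression Console. RMA brings arrays to a common probe distribution, so only levels relative to the rest of an array can be read. The 2016 annotation gave 1 symbol to 10069 probe sets, several to 198 and none to 13732. All 64 members' gene IDs were found in RefSeq Sscrofa11.1.

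Array controls (124) and probe sets whose mean fell under percentile 25 of all were left out, and 18006 were fitted in R 4.3.3 with limma 3.58.1 (lmFit, eBayes) on feeding group and set code, with adjusted p-values by Benjamini-Hochberg and a threshold of 0.05. On simulated data, medium minus control recovered 100% of 100 shifts of 1 and 53% of 100 shifts of 0.3 among 18006 probe sets. Both sizes stood in the same fit, where the larger shifts ease the adjusted threshold for the smaller ones. The noise was drawn separately for each probe set, whereas the members vary together. In that fit 10 unshifted probe sets were called. Lists were described by counts and medians, and correlations carry no test. Replicate numbers were not used to pair samples in the main fit. Of 36 same-numbered pairs, 8 correlated above 0.1. No such count is given for differently numbered pairs, so whether the numbers pair samples was not settled. Named members are the 3 with the smallest p per comparison, the stalk genes, RPSA, the 3 largest and smallest SDs and the genes that are not core subunits. Other settings were other blocks, filters, scalings, weights, probe sets and samples. Members and lists were chosen with earlier results of these data known, and the other bright genes and the quantile check of the shared pattern were added after the data had been seen. Figures were drawn with matplotlib 3.10.9.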

Additional observations from a re-analysis of the deposited data

How the results depend on the processing

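Over 36 fits that left out 1 sample each and 26 other settings, 781 of 785 values kept their direction and their side of the threshold, or moved by less than the spread between samples. These were the counts of members past an adjusted p of 0.05 and the medians of the feeding comparisons. The SD of the members' mean within groups, 0.109, exceeded each of these medians in size. A median could therefore fall to 0 or turn its sign and still be counted as kept. Of the other recomputed values (unadjusted counts, counts by sign, set code medians and single genes), 298 moved and 6292 did not. In the comparisons of feeding groups all 239 recomputed counts of members past an adjusted p of 0.05 were 0, the smallest adjusted p being 0.35. In S3 minus the other set codes, where 0 members passed, leaving out 1 sample gave 0 to 1, with RPL15 passing without control replicate 6 (adjusted p = 0.0471) and without control replicate 10 (0.0486). It also passed as 1 member with the oligodendrocyte and neuron means as covariates (0.0439), and as 1 member without the 3 arrays of lowest correlation (0.0367), which was tried after the data had been seen. With a replicate block and no set block the medians were -0.075 (medium minus control), -0.033 (high minus control) and 0.033 (high minus medium). With the replicate block and the set block together they were -0.054, -0.096 and -0.038, so the last turned its sign, and the cause was not tested. Whether the replicate numbers pair the samples was not settled. The high minus control median was 0.0 with array weights. RPL7, picked for its smallest p in the same samples, kept an unadjusted p under 0.05 for high minus control in all 36 fits without 1 sample (-0.163 to -0.109). Its unadjusted limma p was 0.0606 with array weights and 0.0793 in arrays with the Dap control. RPL37 in high minus medium was 0.014 in those arrays. The number of arrays limits the precision.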
